A study of Saccharomyces cerevisiae with 6 samples.

Results

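The 10 genes described here act in potassium, sodium and proton transport of budding yeast or in its control: HAL1, HAL5, SAT4, TRK1, TRK2, NHA1, PMA1, PMA2, TOK1 and CRZ1. They were chosen by name, and the platform annotation gave each of them 1 probe set on an Affymetrix yeast expression array, so that all 10 of 10 were measured among 5449 tested genes. The rule of taking the probe set with the highest mean signal had nothing to decide. The group was, however, drawn up with earlier results of these data known, in which HAL1 was already among the genes with the largest rises. The values of HAL1 are therefore given as a description with no test, and no count over the 10 genes serves as independent support.

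The comparison was between 2 groups of laboratory yeast, with 3 samples and 3 arrays in each. The wild type was strain W303-1A. The mutant was a W303-1A strain in which NAB2, the gene of an essential nuclear poly(A)-binding protein, had been replaced with HIS3 and which lived on the nab2-1 allele from a centromeric plasmid marked with LEU2. Both were grown in YPD, a rich medium, at 30°C to exponential phase, and no salt or other stress treatment is given in the labels. The wild type is not labelled as carrying the plasmid, so effects of the allele, of the HIS3 and LEU2 markers and of anything else that separates the strains cannot be told apart. Separate cultures are not stated for the 3 samples of either group. The p-values therefore rest on sample-to-sample spread that could be technical.

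Yeast cells hold potassium high and sodium low against the outside medium. The plasma membrane proton pump Pma1 spends ATP to drive protons out, and the voltage and pH gradient it builds powers the uptake of potassium through Trk1 and Trk2 and the exchange of sodium or potassium for protons through Nha1. The protein kinases Hal5 and Sat4 keep the Trk transporters stable at the membrane. Under salt or calcium stress the phosphatase calcineurin activates the transcription factor Crz1, which raises, among others, the gene of the sodium pump Ena1.

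Values are log2 signals, and a difference is the nab2-1 mean minus the wild type mean, ± its SE (n = 3 arrays in each group). Adjusted p-values come from limma with Benjamini-Hochberg adjustment over all 5449 genes, and 0.05 was the threshold. NAB2 itself had signals of 13.84, 13.60 and 13.71 in nab2-1 and 12.43, 12.36 and 12.29 in the wild type, and it rose by 1.35 ± 0.07 (adjusted p = 4.9e-06). The position of its probes against the nab2-1 lesion is unknown here, so NAB2 cannot check the labels. Arrays of a group correlated at 0.994 to 0.998 across genes and arrays of different groups at 0.940 to 0.947. The median gene was higher in nab2-1 by 0.73 on chromosome I, 0.77 on XI and 0.75 on XVI, while on the other 13 chromosomes it ranged from -0.14 to -0.08. HAL1 and PMA2 lie on chromosome XVI and TRK2 on XI, and the other 7 genes lie on chromosomes without such a shift. For this reason each difference is also given relative to the chromosome, after every array had been lowered by the median of the genes on that chromosome. All 10 genes were measured well above the level of annotated probe sets on the same array that matched no Saccharomyces cerevisiae gene. These were taken as probe sets for another yeast species, and their 95th percentile was 4.27.

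The main pattern was a rise of HAL1, HAL5 and CRZ1 that went beyond their chromosomes, small falls of TRK1 and PMA1 that did not pass relative to theirs, and rises of TRK2 and PMA2 on chromosomes that were raised as a whole. HAL1 was 5.63-fold higher, CRZ1 1.71-fold and HAL5 1.52-fold. SAT4, NHA1 and TOK1 did not pass the test. As deposited, 5 of the 10 genes, HAL1 included, were called higher, against 30.2% of all genes, and 2 were called lower, against 37.2% of all genes. Together 7 of 10 were called, and 67.4% of all genes were. Relative to the chromosomes, 3 genes, HAL1 included, were called higher, against 31.4% of all genes, and 1 lower, against 30.6%. On that scale 62.0% of all genes were called in either direction. Nothing is read from these shares, since the genes were named with results known. The median difference of the 10 genes was 0.22, and 0.0060 without HAL1, beside -0.05 over all genes.

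**Figure D1:**
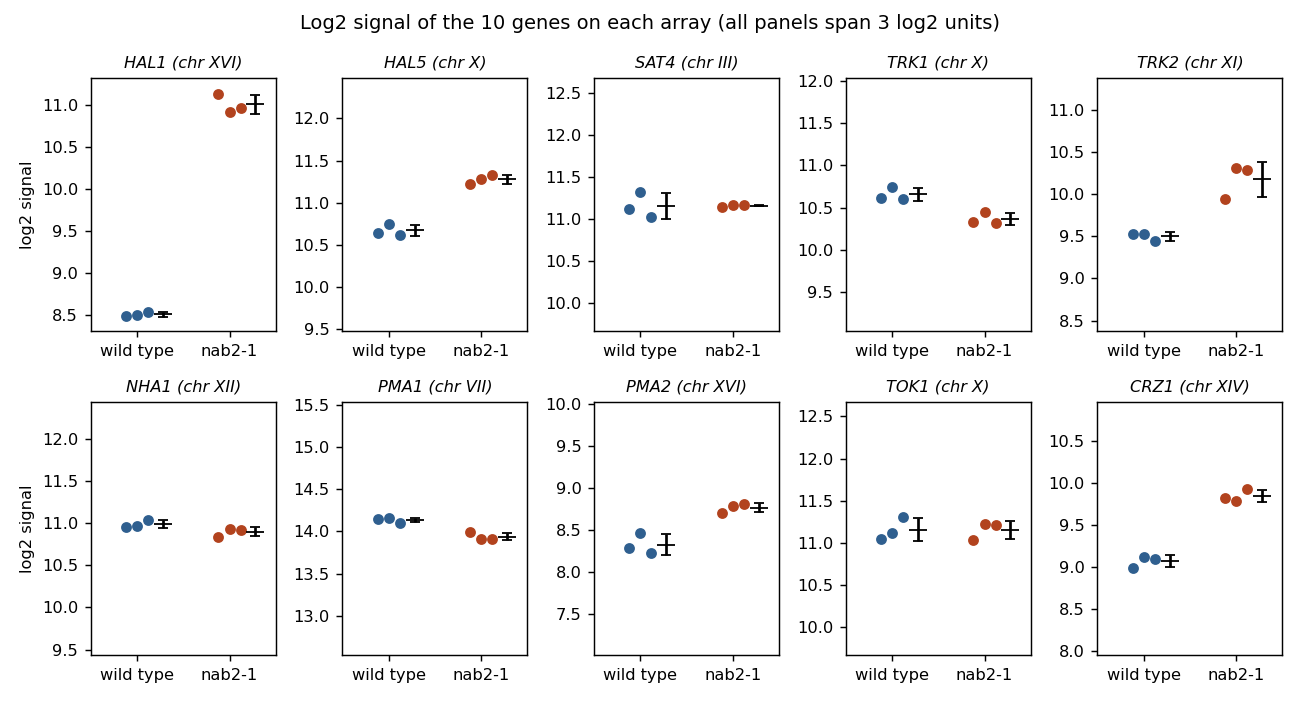
Log2 signal (y axis) of each of the 10 genes on the 3 wild type arrays (blue) and the 3 nab2-1 arrays (red), with the mean and SD of each group in black; every panel covers the same span of 3 log2 units around its own middle. The 3 nab2-1 values of HAL1 (10.91 to 11.13) sit far above its wild type values (8.49 to 8.54), HAL5 and CRZ1 are separated by smaller steps, and the groups of SAT4 and TOK1 overlap.

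HAL1 encodes a cytoplasmic protein that raises salt tolerance when overproduced, with more potassium and less sodium kept in the cell. Its log2 signals were 11.13, 10.91 and 10.96 in nab2-1 and 8.49, 8.50 and 8.54 in the wild type. The 3 nab2-1 arrays were all higher than every wild type array, and the gap was many times the spread within either group (SD 0.11 and 0.026). The difference of 2.49 ± 0.06 ranked 12 of 5449 genes from the highest and 5 of the 424 tested genes on chromosome XVI.

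Part of the HAL1 difference was shared with its chromosome. Relative to the chromosome median HAL1 was higher by 1.61 ± 0.07, or 3.06-fold. On that scale its values were 0.080, -0.11 and -0.07 in nab2-1 and -1.64, -1.72 and -1.57 in the wild type. The groups stayed far apart on this scale as well. Among the 10 tested genes on either side of HAL1, the differences ran from -0.22 to 1.98 with a median of 0.95, and 0 of these 20 neighbours exceeded HAL1. The nearest neighbour to HAL1 in that order, AIM45, differed by 1.00 and the next on the other side, ICL2, by 0.92, both close to the level of the whole neighbourhood (AIM45 and ICL2 were picked for their place beside HAL1). Across the 6 arrays the genes with the profile most like that of HAL1 were VPS28 (Pearson's r = 0.99989), MUK1 (0.99974) and LST4 (0.99968), by a fixed rule. This likeness is a weak description, because 6 arrays in 2 groups mostly carry the group difference, and 631 of the other 5448 genes had an r above 0.98 with HAL1.

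HAL5 and SAT4 (also known as HAL4) encode related protein kinases with partly overlapping roles in holding Trk1 at the plasma membrane. HAL5 had signals of 11.22, 11.28 and 11.33 in nab2-1 and 10.64, 10.75 and 10.62 in the wild type. The groups did not overlap, and HAL5 rose by 0.61 ± 0.06 (1.52-fold, limma adjusted p = 5.1e-05). On chromosome X it ranked 22 of 316 genes, 19 of its 20 neighbours had smaller differences, and relative to the chromosome the rise was 0.82 ± 0.07 (adjusted p = 2.9e-05).

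SAT4 had signals of 11.15, 11.16 and 11.16 in nab2-1 and 11.12, 11.32 and 11.02 in the wild type. The nab2-1 values lay within the wider range of the wild type values. Its difference was 0.0060 ± 0.08 (adjusted p = 0.95), with a 95% interval from -0.18 to 0.19 that does not reach the rise of HAL5. Within arrays the ratio of SAT4 to HAL5 signal was 1.52-fold lower in nab2-1, a difference of -0.60 on the log2 scale. For this and the other 2 paralogue pairs an exact permutation test, two-sided, cannot go below p = 0.1 with 3 against 3 arrays, and SAT4 against HAL5 gave that value (0.1 after adjustment over the 3 pairs).

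TRK1, the main high-affinity potassium uptake system, and TRK2, its lower-level paralogue, moved in opposite directions as deposited. TRK1 had signals of 10.33, 10.44 and 10.32 in nab2-1 and 10.61, 10.75 and 10.60 in the wild type. Every nab2-1 value was below every wild type value, and TRK1 fell by 0.29 ± 0.06 (1.22-fold, adjusted p = 0.0041). Relative to chromosome X the difference was -0.08 ± 0.07 (adjusted p = 0.34), so the call was lost. It was also lost when arrays were scaled to spiked poly(A) controls (-0.02, adjusted p = 0.94). The mean log2 signal of these controls ran from 7.22 to 7.59 in the wild type and from 7.06 to 7.16 in nab2-1. This scaling therefore adds spread between arrays to every gene, and a call lost under it does not show that a gene is unchanged.

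TRK2 had signals of 9.94, 10.31 and 10.29 in nab2-1 and 9.53, 9.53 and 9.44 in the wild type. The first nab2-1 array was lower than the other 2, giving the widest spread of any of the 10 genes (SD 0.21 in nab2-1 against 0.05 in the wild type), yet the groups did not overlap. TRK2 rose by 0.68 ± 0.10 (1.60-fold, adjusted p = 0.00068). That was close to the middle of chromosome XI, where it ranked 170 of 293 genes. Its 20 neighbours had a median of 0.62, with 9 above TRK2 and 11 below it. Relative to the chromosome the difference turned to -0.10 ± 0.09 (adjusted p = 0.34).

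The signal ratio of TRK2 to TRK1 within arrays was 1.95-fold higher in nab2-1, by 0.97 on the log2 scale (exact permutation test, two-sided, p = 0.1, the smallest possible). With both genes taken relative to their chromosomes the change of this ratio was -0.03 (exact p = 0.9).

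**Figure D2:**
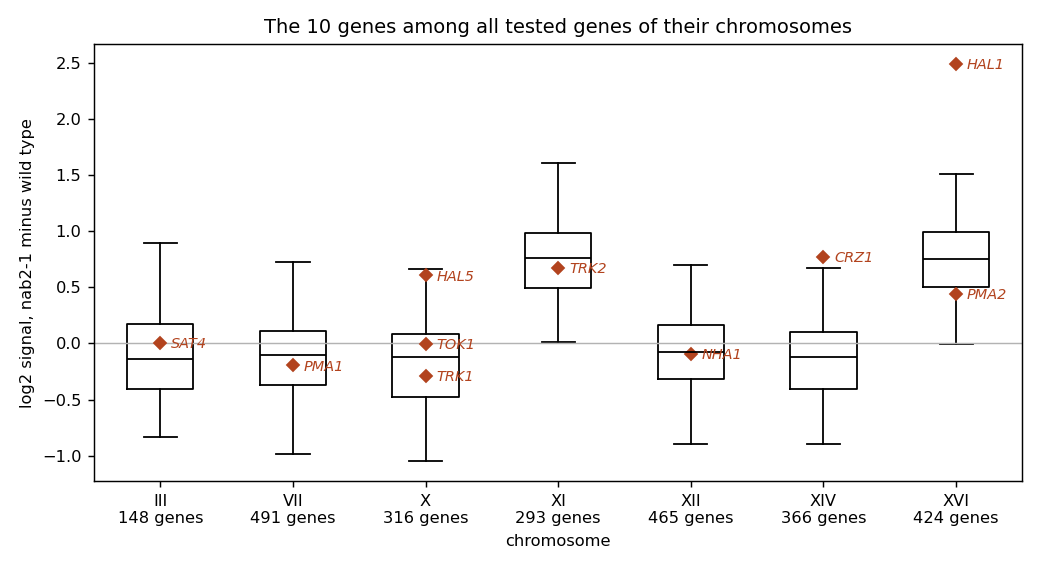
Difference in log2 signal, nab2-1 minus wild type (y axis), of the 10 genes (red diamonds) beside all tested genes of the chromosomes they lie on (x axis); boxes show quartiles and the median, whiskers the 5th and 95th percentiles. HAL1 lies far above the whisker of chromosome XVI and CRZ1 just above that of XIV, TRK2 lies near the median of the raised chromosome XI, and PMA2 lies below the box of XVI.

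NHA1 and TOK1, which move cations out of the cell, did not pass the test. NHA1, an antiporter that trades sodium or potassium for protons at the plasma membrane, had signals of 10.83, 10.93 and 10.92 in nab2-1 and 10.96, 10.97 and 11.04 in the wild type. The nab2-1 values were all slightly lower, but the difference of -0.09 ± 0.05 did not pass (adjusted p = 0.15), with a 95% interval from -0.21 to 0.03. TOK1, a channel that lets potassium out when the membrane is depolarised, had signals of 11.03, 11.22 and 11.21 in nab2-1 and 11.05, 11.11 and 11.31 in the wild type. The groups overlapped almost fully. The TOK1 difference was -0.0022 ± 0.08 (adjusted p = 0.98), with an interval from -0.20 to 0.20, and relative to chromosome X it was 0.21 ± 0.10 (adjusted p = 0.084). That value passed without nab2-1 replicate 1 (0.28, adjusted p = 0.032) or without wild type replicate 3 (0.30, adjusted p = 0.025). It did not pass when the chromosome's shift came from the deviations of genes from their own means (0.15, adjusted p = 0.16).

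PMA1 encodes the essential proton pump of the plasma membrane, and PMA2 a closely related pump that is normally made at a far lower level. PMA1 had signals of 13.99, 13.91 and 13.91 in nab2-1 and 14.14, 14.16 and 14.10 in the wild type. The groups were narrow and did not overlap, and PMA1 fell by 0.20 ± 0.05 (1.15-fold, adjusted p = 0.0076). Relative to chromosome VII its difference was -0.00059 ± 0.06 (adjusted p = 0.99). How near to 0 this lies depends on how the chromosome's shift was taken. From the deviations of genes from their own means, the PMA1 difference was -0.08 ± 0.05 (adjusted p = 0.19). The sign of the deposited PMA1 difference changed under the spiked-control scaling, to 0.08 (adjusted p = 0.68).

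PMA2 had signals of 8.70, 8.79 and 8.81 in nab2-1 and 8.29, 8.46 and 8.22 in the wild type. All nab2-1 values were higher, and PMA2 rose by 0.44 ± 0.07 (1.36-fold, adjusted p = 0.0011). This was less than most of chromosome XVI, where it ranked 335 of 424, and 17 of its 20 neighbours had larger differences. Relative to that chromosome PMA2 was lower by a difference of -0.44 ± 0.06 (adjusted p = 0.00050), so its direction depends on the scale. The within-array ratio of PMA2 to PMA1 was 1.56-fold higher as deposited and changed by -0.44 relative to the chromosomes (exact permutation test, two-sided, p = 0.1 for both). The coding sequences of PMA1 and PMA2 are closely alike, and whether the PMA2 probe set also captured PMA1 RNA was not tested.

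**Figure D3:**
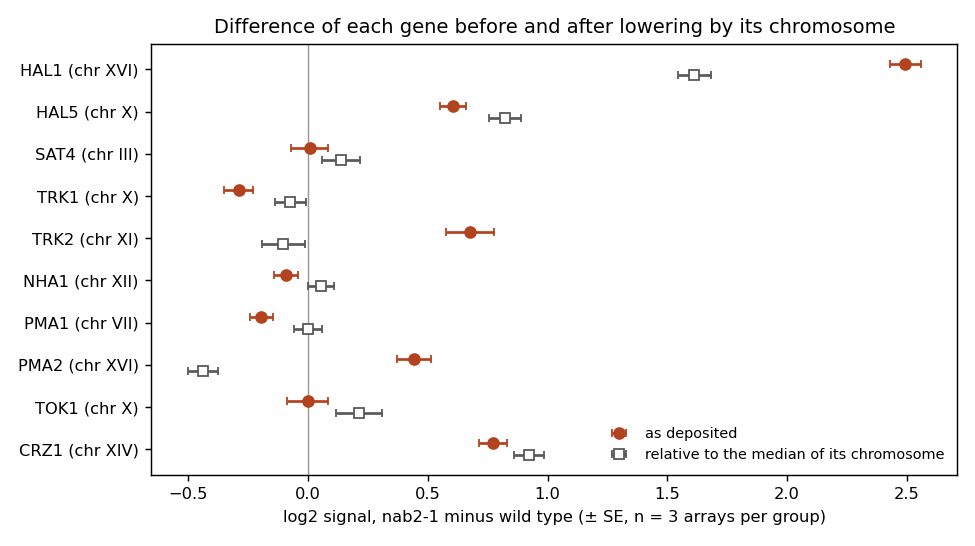
Difference in log2 signal, nab2-1 minus wild type, ± SE (x axis) for each of the 10 genes (y axis), as deposited (red circles) and after lowering each array by the median of the chromosome (open squares). HAL1 moves from 2.49 to 1.61 and stays clear of 0, HAL5 and CRZ1 stay above 0.5 on both scales, TRK2 and PMA2 cross from above 0 to below it, and TRK1 and PMA1 move to near 0.

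CRZ1, the transcription factor gene of the calcineurin pathway, had signals of 9.82, 9.78 and 9.92 in nab2-1 and 8.99, 9.12 and 9.10 in the wild type. The groups were far apart compared with their spread (SD 0.07 in both), and CRZ1 rose by 0.77 ± 0.06 (1.71-fold, adjusted p = 2.4e-05). It ranked 15 of 366 genes on chromosome XIV, only 1 of its 20 neighbours had a larger difference, and relative to the chromosome the rise was 0.92 ± 0.06 (adjusted p = 1.3e-05). The activity of Crz1 depends mainly on its dephosphorylation, which RNA levels do not show.

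**Figure D4:**
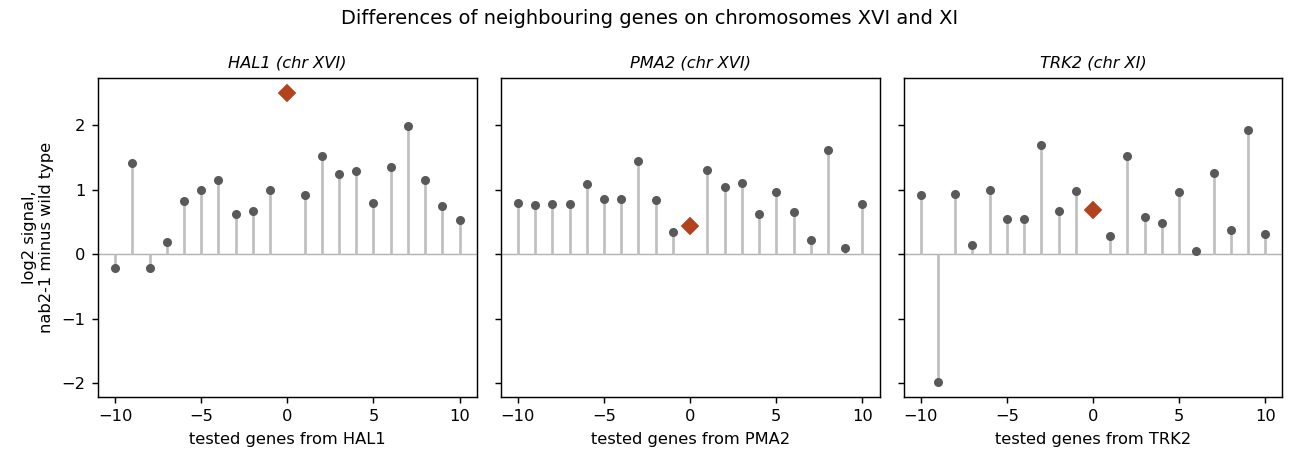
Difference in log2 signal, nab2-1 minus wild type (y axis), of the 10 tested genes on either side (grey points) of HAL1, PMA2 and TRK2 (red diamonds), in gene order along the chromosome (x axis, steps from the named gene). HAL1 stands above all 20 neighbours, PMA2 stands below 17 of its 20, and TRK2 is in the middle of its 20.

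Genes that Crz1 is known to act on were examined next, from a list written from general knowledge. Of 11 measured, 7 rose and 1 fell, with a median of 0.29 beside -0.05 over all genes, and relative to the chromosomes 8 were higher and 2 lower. Of all genes, 30.2% rose and 37.2% fell as deposited, and 31.4% were higher and 30.6% lower relative to the chromosomes. The list is partial, because ENA5, PHO89, PMC1 and PMR1 were counted among transport genes and RCN1 among signalling genes. ENA5, PHO89 and PMC1 fell by 0.61, 0.50 and 0.35 (limma adjusted p = 1.4e-05, 0.026 and 0.0016). PHO89 did not pass relative to its chromosome (-0.40, adjusted p = 0.056). PMR1 did not pass as deposited (-0.10, adjusted p = 0.16), and RCN1 rose by 0.96. CMK2, a calmodulin-dependent kinase gene, rose by 1.56 ± 0.07 (adjusted p = 2.2e-06), with signals of 12.27, 12.27 and 12.43 against 10.83, 10.78 and 10.67. GYP7, the gene of an activator of the vacuolar GTPase Ypt7, rose by 1.31 ± 0.08 (adjusted p = 7.0e-06), and the chitin synthase gene CHS1 rose by 0.70 ± 0.09 (adjusted p = 0.00026). CMK2, GYP7 and CHS1 lie on chromosomes XV, IV and XIV, outside the raised ones. TCB1, which encodes a tether between the endoplasmic reticulum and the plasma membrane, moved the other way and fell by 1.46 ± 0.07 (adjusted p = 3.3e-06).

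Of 11 genes of calcineurin and calmodulin signalling, 6 rose and 4 fell, beside 30.2% and 37.2% of all genes. The counts relative to the chromosomes were 4 higher and 3 lower, beside 31.4% and 30.6% of all genes. FRT2, whose product works with the calcineurin substrate Frt1, rose by 1.47 ± 0.08 (adjusted p = 5.5e-06) and lies on chromosome I. The calcineurin regulator genes RCN1 and RCN2 rose by 0.96 ± 0.08 and 0.68 ± 0.06 (adjusted p = 3.5e-05 and 4.4e-05). RCN1 lies on chromosome XI and did not pass relative to it (0.18 ± 0.09, adjusted p = 0.13), whereas RCN2, on XV, was then at 0.76 ± 0.07 (adjusted p = 4.5e-05) and FRT2 at 0.87 ± 0.07 (adjusted p = 3.7e-05). The calmodulin kinase gene CMK1 fell by 0.61 ± 0.07 (adjusted p = 0.00021), FRT1 fell by 0.45 ± 0.11 (adjusted p = 0.0074) and SLM1, which encodes a phosphoinositide-binding calcineurin substrate, fell by 0.36 ± 0.06 (adjusted p = 0.0014). Under the spiked-control scaling the calls of FRT1 (-0.18, adjusted p = 0.31) and SLM1 (-0.08, adjusted p = 0.66) were lost. Of the 3 genes of this list on chromosomes I and XI, 3 rose, and of the other 8, 3 rose and 4 fell. Of all genes on I, XI and XVI 89.6% rose, and of all genes elsewhere 19.8% rose and 43.2% fell.

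Of 10 calcium transport genes, whose products shape the signal that calcineurin reads, 7 fell and 2 rose, with the same counts relative to the chromosomes. None of the 10 lies on chromosome I, XI or XVI, and of all genes off those chromosomes 43.2% fell and 19.8% rose. Relative to the chromosomes 30.6% of all genes were lower and 31.4% higher. YVC1, the vacuolar calcium release channel gene, was 2.11-fold lower (adjusted p = 2.8e-06), with signals of 10.12, 10.18 and 10.19 against 11.23, 11.19 and 11.30. VCX1, the vacuolar calcium-proton exchanger gene, fell by 1.07 ± 0.05 (adjusted p = 2.4e-06), and MID1, a subunit of the plasma membrane calcium channel, fell by 0.88 ± 0.08 (adjusted p = 5.3e-05). ECM7, also linked to calcium uptake, rose by 0.37 ± 0.08 (adjusted p = 0.0059). RCH1, a gene of a negative regulator of calcium uptake, rose by 0.24 ± 0.09 (adjusted p = 0.037), a call that was lost without nab2-1 replicate 3 (adjusted p = 0.10), without wild type replicate 1 (0.12) or without wild type replicate 3 (0.051).

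Among 11 other potassium and sodium transport genes, 7 fell and 2 rose, and relative to the chromosomes 6 were lower and 1 higher. The shares over all genes were 37.2% lower and 30.2% higher as deposited, and 30.6% and 31.4% relative to the chromosomes. VNX1, a vacuolar exchanger of sodium or potassium for protons, fell by 1.18 ± 0.09 (2.26-fold, adjusted p = 2.8e-05), with signals of 9.77, 10.15 and 9.92 against 11.08, 11.14 and 11.17. QDR2, a membrane transporter linked to potassium uptake, fell by 1.00 ± 0.11 (adjusted p = 0.00011), and NHX1, the endosomal sodium-proton exchanger gene, fell by 0.76 ± 0.06 (adjusted p = 3.1e-05). PRM6, a potassium transporter gene that mating pheromone induces, was listed with its rise already known and is given as a description, with a difference of 1.35 ± 0.11. YLH47, of the mitochondrial potassium-proton exchange machinery, rose by 0.66 ± 0.06 (adjusted p = 5.0e-05) but lies on chromosome XVI, relative to which it was at -0.22 ± 0.06 (adjusted p = 0.017).

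The sodium pump genes lie in a cluster of near-identical copies, and the annotation names only ENA5 among the tested genes, so ENA1 and ENA2 are not analysed here. ENA5 fell by 0.61 ± 0.04 (adjusted p = 1.4e-05), with signals of 11.33, 11.34 and 11.37 in nab2-1 and 11.98, 11.96 and 11.95 in the wild type. Its other probe set differed by -0.59 ± 0.15 (adjusted p = 0.010 over every probe set). Signal from the copies cannot be assigned to single ENA genes, and ENA5 was named after its values were seen.

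Of 13 regulators of cation transport and salt tolerance, 4 rose and 4 fell, beside 30.2% and 37.2% of all genes. The counts relative to the chromosomes were 5 higher and 2 lower, beside 31.4% and 30.6% of all genes. SIS2 (also HAL3), which encodes an inhibitor of the Ppz1 phosphatase, rose by 0.98 ± 0.06 (adjusted p = 6.0e-06), and its relative CAB3 rose by 0.95 ± 0.05 (adjusted p = 3.5e-06). Both lie on chromosome XI, relative to which they were at 0.20 ± 0.06 and 0.17 ± 0.05 (adjusted p = 0.017 and 0.028). NRG1, the gene of a repressor that acts on ENA1, rose by 0.57 ± 0.11 (adjusted p = 0.0024). PPZ2, VHS3 and ARL1, which encode a phosphatase, another Ppz1 inhibitor and a small GTPase, fell by 0.42 ± 0.09, 0.36 ± 0.06 and 0.28 ± 0.07 (adjusted p = 0.0041, 0.00098 and 0.011). All 3 calls were lost under the spiked-control scaling (PPZ2 -0.14, VHS3 -0.08 and ARL1 -0.0011, adjusted p = 0.43, 0.66 and 1.0). ARL1 was also not called relative to its chromosome (-0.17, adjusted p = 0.059).

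Of 8 regulators of the plasma membrane proton pump, 2 rose and 4 fell, and 0 of the 8 lie on raised chromosomes. The counts relative to the chromosomes were 3 higher and 2 lower, beside 31.4% and 30.6% of all genes. Off the raised chromosomes 19.8% of all genes rose and 43.2% fell. HSP30, which encodes a stress-induced membrane protein that lowers Pma1 activity, had signals of 13.68, 13.86 and 13.71 in nab2-1 and 10.60, 10.75 and 10.77 in the wild type, an 8.25-fold difference that was known when the list was written and is given with no test. The Pma1-activating kinase gene HRK1 rose by 0.53 ± 0.12 (adjusted p = 0.0054), while PTK2, which encodes another such kinase, fell by 0.21 ± 0.07 (adjusted p = 0.039). The casein kinase gene YCK1 fell by 0.39 ± 0.06 (adjusted p = 0.0012) and the Pma1-associated proteolipid gene PMP2 fell by 0.34 ± 0.09 (adjusted p = 0.013). Under the spiked-control scaling the calls of YCK1 (-0.11, adjusted p = 0.55) and PMP2 (-0.07, adjusted p = 0.73) were lost. The PTK2 call did not hold without nab2-1 replicate 1 (adjusted p = 0.093), without nab2-1 replicate 3 (0.094), without wild type replicate 2 (0.094), under cyclic loess (0.068), with array weights (0.058), under the spiked-control scaling (0.72) or relative to chromosome X (0.92).

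Of 20 genes of the vacuolar proton pump, 4 rose and 11 fell. The 4 that rose were the 4 on chromosomes XI and XVI, and 89.6% of all genes on I, XI and XVI rose. Of the 16 elsewhere 11 fell and 0 rose, where 43.2% of all genes off the raised chromosomes fell and 19.8% rose. VPH2, an assembly factor gene, rose by 0.75 ± 0.06, and the subunit genes VMA13 and VMA5 each rose by 0.66 (SE 0.05 and 0.06), with adjusted p = 3.6e-05, 2.3e-05 and 7.3e-05. Relative to the chromosomes these were at -0.03, -0.22 and -0.12, and 0 of the 20 genes were then higher and 7 lower. On that scale 31.4% of all genes were higher and 30.6% lower. STV1, the Golgi form of a membrane subunit, fell by 0.66 ± 0.06 (adjusted p = 5.0e-05), VMA6 fell by 0.59 ± 0.05 (adjusted p = 3.9e-05) and VMA16 fell by 0.55 ± 0.05 (adjusted p = 3.1e-05). Under the spiked-control scaling the calls of VMA6 (-0.31, adjusted p = 0.070) and VMA16 (-0.27, adjusted p = 0.11) were lost.

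**Figure D5:**
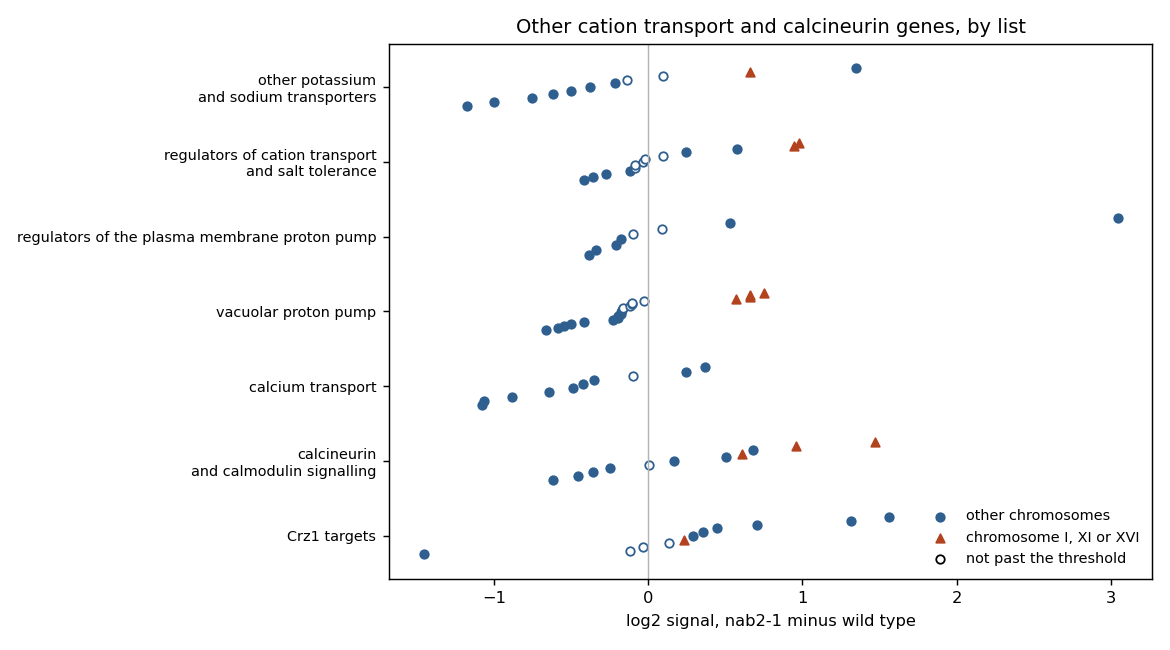
Difference in log2 signal, nab2-1 minus wild type (x axis), of the 84 measured genes of the other 7 lists (y axis); red triangles mark genes on chromosomes I, XI and XVI, blue circles other chromosomes, and open symbols genes that did not pass the threshold. All 11 triangles lie to the right of 0 and passed, while most blue circles of the calcium transport and vacuolar proton pump lists lie to the left.

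Over the 84 genes of these 7 lists, 27 rose and 38 fell as deposited, and 23 were higher and 29 lower relative to the chromosomes. The 11 on chromosomes I, XI and XVI all rose, as did 89.6% of all genes there. Of the other 73, 16 rose (21.9%) and 38 fell (52.1%), beside 19.8% and 43.2% of all genes off those chromosomes. These lists were written knowing that PRM6 and HSP30 had risen. Under the spiked-control scaling the median difference over all genes went from -0.05 to 0.22, and 77.4% of called genes were higher against 44.8% as deposited. The 5 members called higher, HAL1 with its known rise included, were still called higher, and 0 of the 10 were called lower. Of the 84 genes 31 were higher and 11 lower.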

How the data were processed

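Each sample was measured on 1 array, and per the labels biotin-labelled cRNA was made from total RNA with the Affymetrix one-cycle protocol. The deposited values are log2 signals for 10928 probe sets; GCOS, RMA and limma are named in the submitters' processing notes, with no versions or order, and the sources used here give no genome build. The values were used as deposited. Of the probe sets, 5498 matched 1 Saccharomyces cerevisiae gene through the platform annotation and the R64 RefSeq gene table, and 1 had several genes. Another 1746 were annotated but not matched to that table and were taken as another species, which was not checked. The remaining probe sets were not assigned to a gene. The highest-mean probe set was kept for each of 47 genes with more than 1, which left 5449 genes.

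The test was limma (version 3.58.1, under R version 4.3.3; lmFit, eBayes, two-sided; Benjamini-Hochberg over 5449 genes). The limma model was checked on made-up values with known changes, and the other steps were not checked in this way. Signals have no read depth, so the number of arrays limits precision; the median SE of a difference was 0.063. The members and the 7 other lists were chosen with earlier results of these data known. The text names the members, NAB2, up to 3 rises and 3 falls per list, and the 3 genes most correlated with HAL1. AIM45, ICL2, ENA5, PHO89, PMC1 and PMR1 are outside that rule, as are list genes named only for a change of sign on another scale. ENA1, ENA2, PSG1 and NCW2 were listed but had no named probe set. Alternatives were other normalizations, spiked controls (36 probe sets), chromosome medians, a replicate block, variance and weight settings, filters, probe set rules, a threshold of 0.01 and each array left out. The replicate numbers did not pair the samples. No sequences are shown because no sequence table was used here. Plots were made in Python 3.11.15 using matplotlib 3.10.9.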

Additional observations from a re-analysis of the deposited data

How the results depend on the processing

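The rises of HAL5 and CRZ1 kept their direction and stayed past the threshold under all 18 alternatives run, with differences from 0.58 to 0.88 for HAL5 and 0.73 to 1.05 for CRZ1. The difference of HAL1, given with no test, ranged from 1.61 to 2.77. HAL1 is part of each count of members higher given below, as a rise known beforehand and not as support. Scaling to the spiked controls gave 622 genes lower in place of 2028, 0 members lower in place of 2 and 11 genes of the other lists lower in place of 38. This scaling added spread between arrays (wild type control means 7.22 to 7.59). Of called genes followed it turned the sign of PMA1 (0.079) and PTK2 (0.068), and of members not called that of NHA1 (0.18) and TOK1 (0.27). Small falls not followed may turn too. Scaling relative to chromosome medians gave 3 members higher in place of 5 and 1 lower in place of 2. Among the called genes followed, the chromosome scaling turned the sign of TRK2 (-0.10), PMA2 (-0.44), YLH47 (-0.22), PTK2 (0.0094), VPH2 (-0.027), VMA13 (-0.22) and VMA5 (-0.12). Among members not called it turned that of NHA1 (0.05) and TOK1 (0.21). Called list genes that were not followed turned as well, namely KRE6 (-0.65), VMA11 (-0.31), CNB1 (-0.17) and KCH1 (0.0023). TOK1 and SAT4, near 0 as deposited, also changed sign under some other settings, from -0.06 to 0.28 for SAT4 and from -0.06 to 0.27 for TOK1 over the alternatives. Without the dimmest 25% of genes, PMA2 was left out, and 0 members were then lower relative to their chromosomes in place of 1.

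With each array left out in turn, 1499 to 1681 genes were higher and 1838 to 2012 lower, 5 members higher and 2 lower each time, and 23 to 26 genes of the other lists higher and 31 to 34 lower. Relative to the chromosomes 3 to 4 members were higher and 1 was lower. TOK1 passed there without nab2-1 replicate 1 (0.28, adjusted p = 0.032) and without wild type replicate 3 (0.30, adjusted p = 0.025), and SAT4 without wild type replicate 2 (0.22, adjusted p = 0.022). TOK1 also passed there with array weights (0.29, adjusted p = 0.015) and without the dimmest genes (0.25, adjusted p = 0.019). The pair differences ranged from 0.60 to 0.70 for PMA2 minus PMA1, 0.89 to 1.07 for TRK2 minus TRK1 and -0.64 to -0.56 for SAT4 minus HAL5.

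The shared replicate numbers did not pair the samples: deviations from the group means correlated at -0.19, 0.19 and -0.14 for numbers 1, 2 and 3, and 2 of 6 samples correlated best with their own number. With the replicate block, 1582 genes were higher and 1932 lower, 5 members were higher and 2 lower, 26 genes of the other lists were higher and 35 lower, and TOK1 relative to its chromosome passed (adjusted p = 0.026), giving 4 members higher and 1 lower. The level median used for each chromosome can itself move. Its shift was 0.88 on XVI, -0.22 on X and -0.19 on VII. From the deviations of genes from their own means, an alternative added after seeing the data, the shifts were 0.75, -0.15 and -0.12. With that, HAL1 was at 1.75, PMA2 at -0.30 (adjusted p = 0.0086), TRK1 at -0.14 (0.074) and PMA1 at -0.08 (0.19). TOK1 was at 0.15 (0.16) and did not pass. As before, 3 members were higher and 1 lower. The causes of the changes were not tested.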
